A study of Drosophila melanogaster with 51 samples.

Results

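The genes examined were 10 genes of the piRNA pathway and of the germ plasm, namely piwi, aub, AGO3, vas, tud, osk, zuc, krimp, armi and spn-E, of 13968 protein-coding genes in the annotation. They were taken by name, not by any measured value, although earlier results of these data were known, and all 10 were found. The data were regions of open chromatin in basal Kc167 cells, mapped by ATAC-seq, an assay that inserts sequencing adapters with a transposase where DNA is accessible. Kc167 is an established fly line that was derived from embryos, resembles hemocytes (the blood cells of the fly) and is not a germ cell line. The basal cells received no copper and were represented by 3 libraries, described in the design as biological replicates, which the authors combined into 1 list of 16118 regions open in at least 2 of them. The other 48 libraries, from 12 stable lines that express Dfd, Ubx, Abd-B, Hth or Gcm alone or in combination under a metallothionein promoter that copper induces, were not analysed here.

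The list gives positions on dm6 without a score, a height or a read number. The depth behind a region is therefore unknown, no value below has a replicate error, and genes without a region are called closed only in the sense that the authors called none there. A gene had an open TSS (transcription start site) when a region overlapped the 250 bp on either side of any of its TSSs by at least 1 bp. Its span ran from 2 kb upstream to the gene end. RNA was not measured here, and an open TSS is not a measure of transcription. Of 7 hemocyte marker genes, srp, ush, Col4a1, Pxn and Hml had an open TSS (71.4%, compared with 47.8% of all protein-coding genes). Their widest regions there were 425 to 844 bp, compared with a median of 232 bp over all open genes. NimC1 and He had no region in their spans.

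piRNAs are small RNAs that guide Argonaute proteins of the Piwi clade to transposon transcripts, mainly in the gonad. In the nucleus Piwi brings silencing to the chromatin of transposons. In the cytoplasm of germ cells Aub and AGO3 cleave transposon and precursor transcripts in turn, in the perinuclear granule called nuage, and the endonuclease Zuc cuts precursors at the mitochondrial surface. The germ plasm is the cytoplasm at the posterior pole of the egg that instructs germ cell fate. It is organised by Osk, and it contains Vas, Tud and Aub.

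The sequences at the open promoters of piwi, aub, vas, armi, spn-E and zuc are shown first. The reason is that the regions lay closely around the TSS and several held motifs known from core promoters. The promoters of tud and krimp are not shown: no motif match was found at tud, and those at krimp lay outside its open region. Unless stated otherwise, each line gives the strand of the gene, 5′ to 3′, from the upstream edge of the open region to 20 bases into the transcript, read from the Release 6 assembly. Capitals mark matches on either strand to the DRE (TATCGATA), a site of the factor Dref, to M1BP motif 1 (GGTCACAC) and to TATAAA. In spn-E a DRE and TATAAA overlap, and aub holds none of these motifs. They are piwi at chr2L:10987401-10987504 (minus strand), aub at chr2L:11001457-11001602 (minus), vas at chr2L:15061532-15061675 (plus), armi at chr3L:3461203-3461336 (plus) and spn-E at chr3R:15837337-15837438 (plus). For zuc, the 55 bases from the TSS of the divergent gene dgt2 to that of zuc are shown (chr2L:11989882-11989936, minus).
piwi: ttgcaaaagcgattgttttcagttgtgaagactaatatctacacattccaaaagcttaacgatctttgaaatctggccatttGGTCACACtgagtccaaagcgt
aub: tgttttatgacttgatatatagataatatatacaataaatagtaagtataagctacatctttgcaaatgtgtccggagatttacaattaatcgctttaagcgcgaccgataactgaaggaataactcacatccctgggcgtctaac
vas: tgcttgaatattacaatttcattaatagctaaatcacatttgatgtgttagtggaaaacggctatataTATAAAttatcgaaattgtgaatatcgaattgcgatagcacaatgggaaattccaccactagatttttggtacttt
armi: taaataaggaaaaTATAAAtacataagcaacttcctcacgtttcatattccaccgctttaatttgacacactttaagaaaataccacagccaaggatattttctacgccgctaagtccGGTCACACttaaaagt
spn-E: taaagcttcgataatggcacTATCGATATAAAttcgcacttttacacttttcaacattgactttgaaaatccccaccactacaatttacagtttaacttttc
zuc: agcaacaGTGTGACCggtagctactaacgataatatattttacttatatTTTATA

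Of the 10 genes, 9 had an open TSS, and osk was the exception. Among all protein-coding genes 6670 of 13968 had one, or 47.8% (95% Wilson interval 46.9 to 48.6, which covers counting error only). The same 9 genes held a region in the span, compared with 59.8% of all genes. Long genes hold more regions by construction, and all of the 10 genes except zuc (1.15 kb) were longer than the median protein-coding gene (2164 bp). The spans of the 10 genes held 27 regions of 135 to 600 bp, with a median of 193 bp. By class, 7 of these regions were at a TSS of the named gene only, 6 at its TSS and also at a TSS of another gene, 10 at a TSS of another gene only, and 4 at no TSS. Thus 13 of the 27 regions were at a TSS of the gene in whose span they lay. All TSS windows of the 10 genes were 99 to 100% unique, measured as the share of positions at which an exact 50-base sequence occurs once on the arms. The read length was not given, so the sequence lost through the authors' use of reads with a single alignment was not measured.

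**Figure D1:**
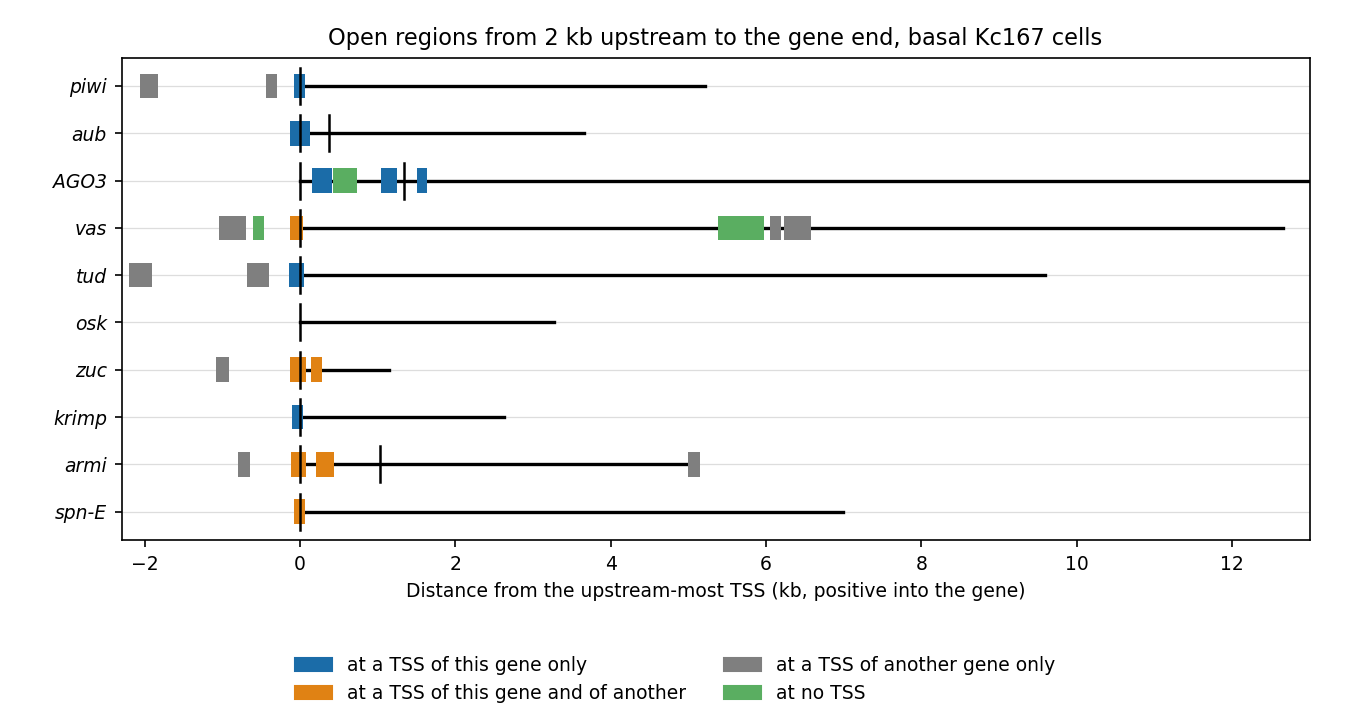
Open regions (coloured boxes) in the spans of the 10 genes, plotted by distance in kb from the upstream-most TSS, with gene bodies as black lines and TSSs as vertical ticks. At least 1 box lies within 250 bp of a TSS in 9 genes, and osk has none. The region of AGO3 at 132000 bp and the rest of that gene lie beyond the right edge.

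The 3 Argonaute genes had open TSSs without a TSS of another gene in reach. The single region at the TSS of piwi (FBgn0004872, chr2L:10982205-10987420, minus strand) was 154 bp wide (chr2L:10987351-10987504) and ran from 84 bp upstream to 69 bp into the gene, with its midpoint at -7.5 bp from the TSS, where negative values lie upstream. The region at aub (FBgn0000146, chr2L:10997819-11001476, minus strand) was 252 bp wide (chr2L:11001351-11001602), and its midpoint fell within 1 base of the TSS. It also touched the window of the second TSS of aub, which is internal,, and it was the only region in the span of this gene. Both genes lie on the minus strand of the same chromosome arm, with 14056 bp between their upstream TSSs and the genes CG12253 and TTLL4A between them. The further regions in the span of piwi, of 143 and 227 bp, were at the TSSs of CG12253 and TTLL4A, with midpoints at -374 and -1946 bp from the TSS of piwi.

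AGO3 differed from the other open genes in its layout. It is a gene of 135 kb (FBgn0250816, chr3L:23554593-23689640, plus strand) in the part of chromosome arm 3L near the centromere, of which 37.4% is repeat-masked and 59.8% is unique by the same 50-base measure. The first 4 of its 5 regions lay within 1481 bp. The first (252 bp, chr3L:23554749-23555000) began 156 bp downstream of the upstream TSS and lay by its midpoint in the 5′ UTR. The second (304 bp, chr3L:23555019-23555322) lay by its midpoint in an intron, at no TSS. The others flanked the downstream TSS (23555925), with 215 bp before it (chr3L:23555631-23555845) and 135 bp after it (chr3L:23556095-23556229). None of the regions contained a TSS base of AGO3. In the rest of the gene 130 kb without a region were followed by a single intronic region of 165 bp (chr3L:23686511-23686675). The low unique share of the gene limits what could be called in this stretch, and its part in the absence of regions was not tested. The region just upstream of the internal TSS is shown because it has a GC content of 31.2%, and it held none of the motifs searched, although a match to the Ovo core described further on begins at its downstream edge.
AGO3: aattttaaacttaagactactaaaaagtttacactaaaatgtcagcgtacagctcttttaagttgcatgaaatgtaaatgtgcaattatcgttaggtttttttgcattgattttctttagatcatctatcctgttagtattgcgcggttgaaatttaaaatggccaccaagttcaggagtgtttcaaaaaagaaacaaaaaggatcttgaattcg

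The genes for piRNA biogenesis at the mitochondrion, zuc and armi, shared their promoter regions with neighbours. The gene zuc (FBgn0261266, chr2L:11988735-11989882, minus strand) encodes the endonuclease of phased piRNA production. There, 218 bp of open chromatin (chr2L:11989800-11990017) covered the TSSs of both zuc and dgt2, an augmin subunit gene, which start 54 bp apart on opposite strands. A second region of 140 bp (chr2L:11989606-11989745) lay in the coding sequence of zuc, with its midpoint 206.5 bp from the TSS, and it was within reach of the dgt2 TSS as well. The third region in the span, of 168 bp, was at the TSS of escl. The gene armi (FBgn0041164, chr3L:3461317-3466314, plus strand) encodes an RNA helicase that hands precursors to the mitochondrial machinery. A region of 193 bp (chr3L:3461203-3461395) covered the TSS. The gene CG46463 starts 2 bp away on the same strand and is annotated over the same interval, so no region at armi can be told from one of CG46463. The TSS of eIF5B, 340 bp away on the opposite strand, was also in reach of this region. The second armi region, of 236 bp (chr3L:3461520-3461755), lay in the transcript with its midpoint 320.5 bp from the TSS. The remaining regions in this span, of 164 and 163 bp, were at a TSS of eIF5B and at a TSS of CycJ, respectively. No region was at the internal TSS of armi (3462348).

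**Figure D2:**
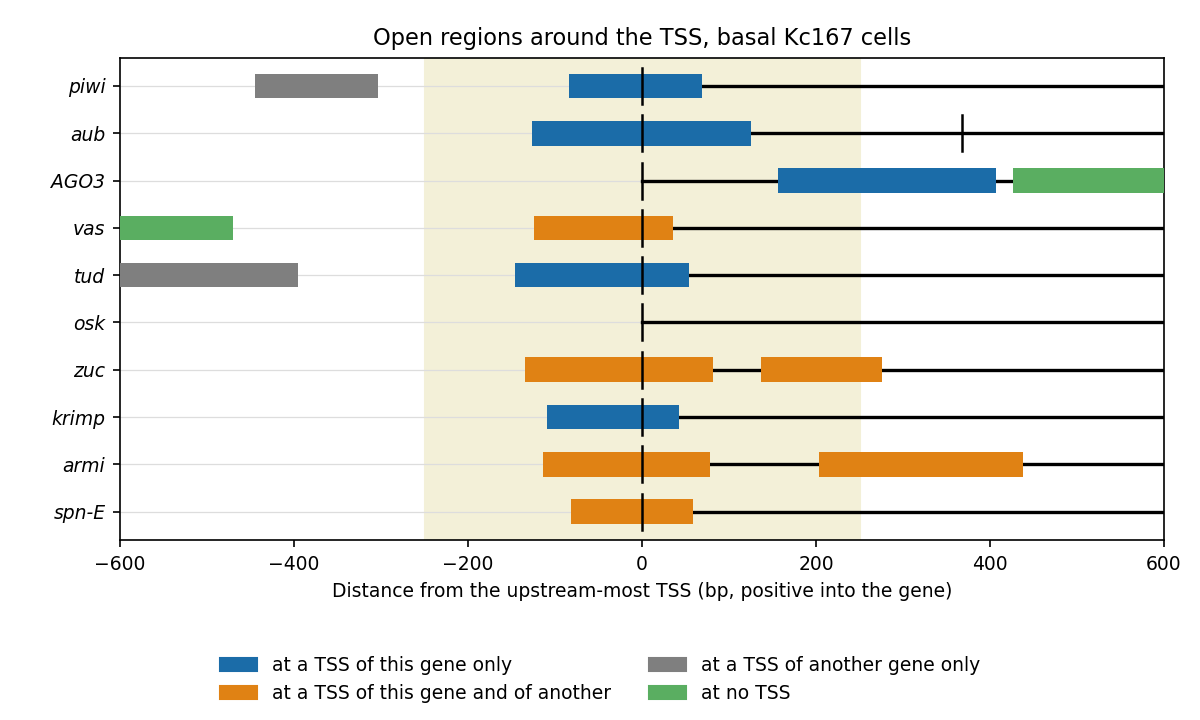
Open regions within 600 bp of the upstream-most TSS of each of the 10 genes, in bp, with the 250-bp window shaded, TSSs as ticks and gene bodies as black lines. In 8 genes a region covers the TSS itself, in AGO3 the first region begins 156 bp into the gene, and osk has none.

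The helicase genes vas and spn-E had narrow regions at the TSS, of 161 and 142 bp. The product of vas (FBgn0283442, chr2L:15061656-15074311, plus strand) is a DEAD-box helicase of nuage and germ plasm. Its TSS region (chr2L:15061532-15061692) is also that of solo, a gene for sister chromatid cohesion in meiosis, because both genes start at the same base. The span of vas held 6 regions, more than that of any other of the 10 genes. The widest of all 27 regions, 600 bp (chr2L:15067033-15067632), lay in a vas intron and by its midpoint in the coding sequence of vig, a gene for an RNA-binding protein that lies in this intron on the opposite strand. Regions of 142 and 353 bp were at an internal TSS of vig (15068078), and the latter was centred 19 bp downstream of it. A region of 344 bp was at the TSS of TfIIS, and 140 bp lay between TfIIS and vas at no TSS (chr2L:15061047-15061186). Only 1 of the 6 regions was thus at the TSS of vas. The spn-E gene (FBgn0003483, chr3R:15837419-15844415, plus strand) encodes a helicase with a Tudor domain that is required for the cycle of Aub and AGO3. Its single region (chr3R:15837337-15837478) covered its TSS and was also within 250 bp of the TSS of ND-23, a gene for a subunit of respiratory complex I, which starts 302 bp away on the opposite strand.

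The Tudor genes tud and krimp had open TSSs of their own. The gene tud (FBgn0003891, chr2R:21183322-21192913, plus strand) encodes the founding Tudor protein, which binds methylated arginines of Aub in the germ plasm. Its region of 201 bp (chr2R:21183176-21183376) ran from 146 bp upstream to 54 bp into the gene. Upstream of it, regions of 289 and 297 bp were at tRNA genes (tRNA:Gly-GCC-1-13 and tRNA:Trp-CCA-2-6 for the nearer, tRNA:Trp-CCA-2-5 for the farther), with 81.7% and 90.9% of their sequence unique. The product of krimp (FBgn0034098, chr2R:16238103-16240722, minus strand) brings Aub and AGO3 together in nuage. The krimp region was 153 bp wide (chr2R:16240679-16240831), was the only one in the span, and reached no TSS and no span of another gene.

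The germ plasm organiser gene osk was the closed gene (FBgn0003015, chr3R:8935126-8938395, plus strand). No region lay in its 3.27 kb or the 2 kb upstream, although its TSS window was fully unique. Its nearest region, of 209 bp (chr3R:8931819-8932027), began at a distance of 3099 bp and was at a TSS of pyd, which encodes a junction protein. Among all closed protein-coding genes the median distance to the nearest region was 4686 bp, and 62.8% were farther from one than osk. The noncoding genes asRNA:CR44020, antisense across the osk TSS, and lncRNA:osk, within the gene, had no region at their TSSs either. The genes nearest to osk by TSS, pyd and ScsbetaA, both had an open TSS, with widest regions of 605 and 466 bp.

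Sharing of the TSS region with another gene was close to its background. It was found at 4 of the 9 open genes (vas, zuc, armi and spn-E), compared with 44.9% of all open protein-coding genes. When only regions at no TSS of another gene counted, piwi, aub, AGO3, tud and krimp had an open TSS (5 of 10, compared with 31.5% of all genes). Neighbours reached only in their span, at no TSS, were lectin-33A at aub, Pu at tud, CG6686 and Ada1-2 at zuc, and mir-4911 and a short noncoding RNA at spn-E, whereas AGO3 and krimp shared no region with the span of another gene. A TSS base lay inside a region in 8 of the 9 open genes, AGO3 being the exception, and in 90.6% of all open genes.

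The TSS regions of these genes were not wide. The widest region at the TSS measured 142 bp at spn-E, 153 bp at krimp, 154 bp at piwi, 161 bp at vas, 201 bp at tud, 218 bp at zuc, 236 bp at armi and 252 bp at aub and AGO3, with a median of 201 bp. The median over all open genes was 232 bp, with quartiles of 181 and 371 bp. Thus 6 of the 9 genes were below that median and none reached the upper quartile. Of all open genes 6.94% had a narrower widest region than spn-E and 56.7% a narrower one than aub and AGO3. With regions of at least 200 bp only, aub, AGO3, tud, zuc and armi kept an open TSS (5 of 10, compared with 30.9% of all genes), and piwi, vas, krimp and spn-E lost it. The tud region passed this limit by 1 bp, and among the genes that lost an open TSS vas had the widest region. At armi the region of 236 bp that passed lay in the transcript, whereas the region of 193 bp that covered the TSS failed. The AGO3 regions that passed contained no TSS base.

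**Figure D3:**
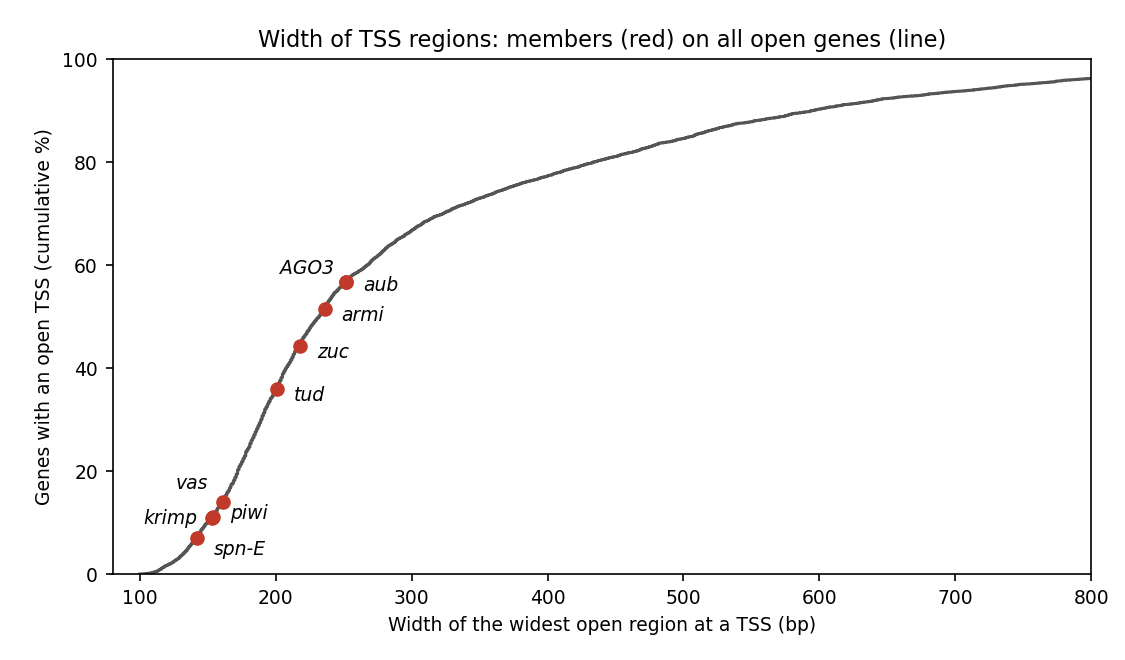
Width in bp of the widest open region at a TSS (x axis, whose right edge leaves out the widest regions) against the cumulative percentage of the 6670 open protein-coding genes (line), with the 9 open genes as red points at the percentage of genes with a narrower region. The points lie between 142 and 252 bp, and those of aub and AGO3 coincide, as nearly do those of piwi and krimp.

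Motifs of core promoters were counted on both strands from 250 bp before to 50 bp after the upstream-most TSS of each gene, where a match is a run of letters and not a shown binding site. M1BP motif 1, named for the zinc finger protein that binds it, was found at piwi, zuc and armi. All protein-coding promoters held it in 7.69% of cases, open ones in 14.2% and closed ones in 1.75%. At piwi it ran across the TSS, from position -2 to 6, where the TSS base is 1 and no position is numbered 0, and at armi from 5 to 12. At zuc it lay from -47 to -40 on the strand of dgt2. The DRE was found at spn-E, from -62 to -55, and overlapped TATAAA there. It was present in 9.36% of all promoters, 15.4% of open and 3.81% of closed ones. All 4 of these matches lay inside the open regions. TATAAA was found at vas, zuc, krimp, armi and spn-E (45.8% of all promoters, 43.2% of open and 48.1% of closed ones). The GAGA repeat GAGAGAG (5.86% of all, 6.7% of open and 5.08% of closed promoters) and the E-box CAGCTG (17.6%, 21.5% and 14.1%) were found at none of the 10 genes. The core ACNGTTA of Ovo, a female germline transcription factor, was found at AGO3 and osk and in 13.3% of all promoters (16.8% of open and 10.2% of closed ones). At osk it began at -115 and at AGO3 at -104, both outside any open region. The match next to the intronic AGO3 region began at -79 from the downstream TSS.

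The rest of the pathway was examined with lists of related genes, which were written with earlier results of these data known. Of 34 other piRNA pathway genes 27 had an open TSS (79.4%, compared with 47.8% of all genes) and 32 a region in the span (94.1%, compared with 59.8%). At 12 of the 27 a TSS region was also at a TSS of another gene, compared with 44.9% of all open protein-coding genes. The widest regions were at mino (1091 bp), which encodes a mitochondrial acyltransferase, papi (524 bp), which encodes a mitochondrial Tudor protein, mael (505 bp) and tj (496 bp), the gene for a transcription factor of the somatic gonad. The midpoint of the widest mino region lay at -471 bp from the nearest TSS of mino, and a TSS region of mino was also at a TSS of a noncoding gene. The 7 closed genes were rhi, cuff, moon, nxf2, egg, Gasz and qin. Of these, moon and Gasz had no region in the span, rhi, cuff, egg and qin had 1 and nxf2 had 2. The gene del, whose product acts with those of rhi and cuff at piRNA clusters, had a region of 194 bp at a TSS. The median of the widest TSS region over the 27 open genes was 190 bp.

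Of 24 other germ plasm and germ cell genes 21 had an open TSS (87.5%, compared with 47.8% of all genes), with the widest regions at the genes for the RNA-binding proteins Pum (706 bp), Smg (597 bp) and Fmr1 (549 bp) and at grk (380 bp), which encodes a ligand of the EGF receptor. At 13 of the 21 a TSS region was also at a TSS of another gene, compared with 44.9% of all open genes. The closed genes were bam, a differentiation factor of germline cysts, otu, and bru1, and bru1 has a TSS window that was 0% unique. The gene nanos, found in the list under its older symbol nos, was counted as open through a region of 288 bp shared with CG11779. Its midpoint lay at -393.5 bp from the TSS of nanos and at -32.5 bp from that of CG11779. Of 10 miRNA and siRNA pathway genes, which act in the soma and in the germline, 9 were open (90%, compared with 47.8% of all genes), led by AGO2 (747 bp), AGO1 (668 bp), Ranbp21 (370 bp) and gw (309 bp), with loqs closed. Here 5 of the 9 had a TSS region that was also at a TSS of another gene. The share of genes with a TSS region of at least 200 bp was 50% in the 10 genes examined, 35.3% in the other piRNA genes, 50% in the other germ plasm genes, 70% in the miRNA and siRNA genes and 30.9% in all protein-coding genes, so that the share in the other piRNA genes was near the background. These lists mix genes with roles in many tissues and genes known mainly from the gonad, and the differences between lists were not tested.

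**Figure D4:**
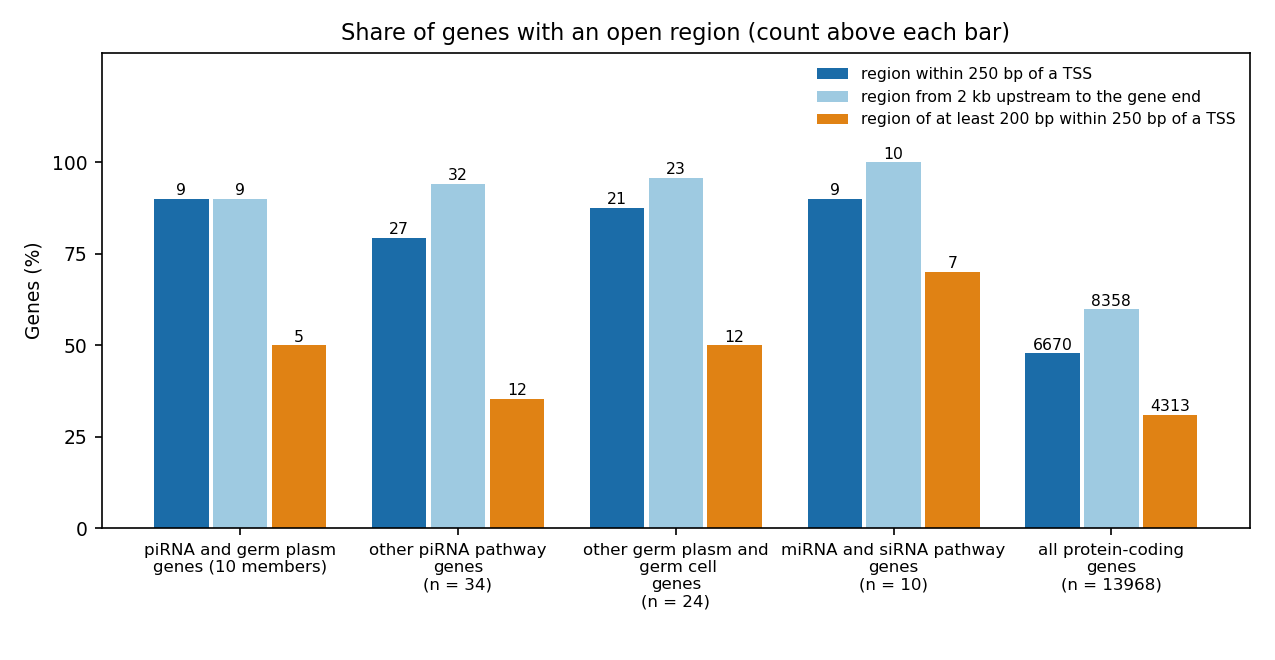
Percentage of genes with a region within 250 bp of a TSS, with a region from 2 kb upstream to the gene end, and with a region of at least 200 bp at a TSS, for the 10 genes, 3 lists of related genes and all protein-coding genes, with the number of genes above each bar. The dark blue bars stand at 79.4 to 90% in the 4 lists and at 47.8% in all genes.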

How the data were processed

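ATAC-seq was performed on 3 basal Kc167 libraries, and the deposited file holds the start and end of each open region and no signal. As the methods of the study and the processing notes describe, reads were mapped by the authors to dm6 (scaffolds left out, single alignments only) using Bowtie 1.2.2. The authors corrected read positions for the transposase (4 bp on the plus and 5 bp on the minus strand) and widened them by 5 bp per side. Regions were called per replicate with MACS2 2.1.1.20160309 (shift -45, extsize 100, q 0.01), and the union of those open in at least 2 replicates was kept. Reads with more than 1 reported alignment were therefore lost, so that sequence present in several copies could be covered only through unique sequence beside it.

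Positions, counted from 1, were compared with Ensembl release 115 (BDGP6, version 54), which is on the dm6 assembly, on 7 chromosome arms, and sequences were read from the RefSeq copy of that assembly, with Python 3.11.15. Overlap counts were tested on simulated data (2000 made-up genes, 0 wrong). The made-up genes had a single TSS each and did not overlap, so shared regions and genes with several TSSs were not covered by this check. The genes, the lists and the alternatives were chosen with earlier results of these data known. The genes named were the 10 genes, neighbours whose windows or spans their regions touch, and of each list all closed genes and the 4 with the widest TSS regions. Others (del, nanos, CG11779, pyd, ScsbetaA, the noncoding genes at osk and the nearest genes at krimp and AGO3) were named after their values were seen. No test was run, since the list holds 1 value per position and genes are not replicates. The alternatives were other windows, widths, overlaps and transcript sets.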

Additional observations from a re-analysis of the deposited data

How the results depend on the processing

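The number of the 10 genes with an open TSS was 9 with TSS windows of 100 and 500 bp, with the region's midpoint in the window, with protein-coding transcripts, the 5′ end of the gene or RefSeq transcripts, and among genes with TSS windows at least 50% unique. It was 5 with regions of at least 200 bp (without piwi, vas, krimp and spn-E), and 5 when regions at a TSS of another gene were left out (without vas, zuc, armi and spn-E). The limit on width was used because the list has no score, and how width relates to a stricter threshold could not be examined. The RefSeq transcripts, the shared regions and the shares of all genes under other spans were chosen as alternatives after seeing the data. Among all protein-coding genes, the share that was open at a TSS was 45% with 100 bp, 50.4% with 500 bp, 45.2% by midpoint, 45.1% at the 5′ end, 48.8% among unique genes, 30.9% with regions of at least 200 bp and 31.5% without shared regions. A region lay in the span of all 10 genes, osk included, when the span began 5 kb upstream (69.5% of all protein-coding genes), in that of 7 with regions of at least 200 bp (43.5%), and in that of 9 from 1 kb upstream (56.3%), in the gene body (48.9%) and by midpoint (58.9%). The number of regions in the spans was 13 with that width, and 19 to 34 with the other spans. Read depth is unknown, and no replicate could be left out, since the list combines them. No paired analysis was possible because the list has 1 group and the result comes from no test.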

Other observations

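The surroundings of the 10 genes varied. Within 50 kb of the TSS there were 12 regions at spn-E and 32 at armi, with 5 at AGO3, compared with a median of 16 and quartiles of 10 and 22 over all protein-coding genes. Of the 6 protein-coding genes nearest by TSS, all 6 were open at osk and at armi, 5 at piwi, aub, vas and tud, 4 at zuc, and 2 at krimp and spn-E. Among all protein-coding genes 47.8% were open. These counts include neighbours open through regions of the named gene itself (solo at vas, CG46463 at armi, dgt2 at zuc and ND-23 at spn-E). The count at piwi includes aub. The 4 genes nearest to krimp, namely CG15708, CG3687, CG7786 and CngA, held no region in their spans, and the TSS of the farthest of them lies 9073 bp from that of krimp. AGO3 had 3 protein-coding neighbours within the distance searched, of which Spf30 and CG17698 were open.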
